A study of Mus musculus with 2 samples.

Results

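The transforming growth factor beta (TGF-β) axis was followed in MC38 tumors through 8 genes chosen by symbol out of 32285 genes in the count matrices. They were the ligands Tgfb1, Tgfb2 and Tgfb3, the receptors Tgfbr1 and Tgfbr2, the secreted proteins Tgfbi and Thbs1, and the feedback inhibitor Smad7. Earlier results of these data were known when the genes were chosen. All 8 were found in both matrices. MC38 is a colon adenocarcinoma line of C57BL/6 mice, and its cells were implanted under the skin of wild-type (Lmo7+/+) or global Lmo7 knockout (Lmo7-/-) hosts, female mice of 6 to 8 weeks on the same C57BL/6 background. The implanted tumor cells carried no Lmo7 deletion in either group, so the genotype differed only in host cells. Live cells were sorted after heated mechanical and enzymatic dissociation of the tumors and lysis of red cells, and 1 single-cell RNA library was made per genotype. How many mice a library pools is not given in the sources used here, and the libraries were pooled for sequencing. With 1 library per genotype there is no replicate error and no test: a gap between the libraries cannot be told apart from a gap between any pair of tumors, and every interval given is a 95% interval that covers counting error only.

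TGF-β ligands are secreted in a latent complex and are released by integrins, proteases or thrombospondin 1, the product of Thbs1. The freed dimer binds the type II receptor TGFBR2, which recruits and phosphorylates the type I receptor TGFBR1, and TGFBR1 phosphorylates SMAD2 and SMAD3, which enter the nucleus with SMAD4. In solid tumors the pathway is known for restraint of T cells and NK cells, for the production of matrix by fibroblasts and for effects on macrophages, while SMAD7 is induced by the signal and blocks the type I receptor.

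Apart from Smad7, whose position is not given here, the genes lie at chr7:25687002-25705077 (Tgfb1), chr1:186622792-186705989 (Tgfb2), chr12:86056745-86079041 (Tgfb3), chr4:47353222-47414931 (Tgfbr1), chr9:116084293-116175360 (Tgfbr2), chr13:56609523-56639562 (Tgfbi) and chr2:118111876-118127133 (Thbs1) of GRCm38. The RefSeq promoter table for GRCm38.p6 held 5 of the 8 genes. The bases before the start are shown for Tgfb2 and Tgfbi, because most UMIs of Tgfb2 were in tumor cell-like and most of Tgfbi in macrophage-like cells below. They are read 5′ to 3′ in the direction of the gene, and capitals mark the letters CAGAC on either strand, the short element that SMAD3 and SMAD4 bind. The 250 bases of Tgfb2 (minus strand, chr1:186705990-186706239) held it 2 times. For Tgfbi (plus strand, chr13:56609336-56609522) the 187 bases that precede the annotated gene held it 2 times.
Tgfb2: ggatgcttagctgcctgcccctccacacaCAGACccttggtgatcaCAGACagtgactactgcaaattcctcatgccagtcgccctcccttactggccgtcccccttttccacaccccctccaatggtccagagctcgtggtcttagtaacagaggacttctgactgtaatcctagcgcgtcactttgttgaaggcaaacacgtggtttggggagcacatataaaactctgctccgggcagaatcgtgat
Tgfbi: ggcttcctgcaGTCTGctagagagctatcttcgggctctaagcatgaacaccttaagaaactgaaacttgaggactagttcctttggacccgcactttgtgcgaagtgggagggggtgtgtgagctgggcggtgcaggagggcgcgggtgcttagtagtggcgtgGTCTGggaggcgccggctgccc
Of all 32851 promoters, 42.2% held these letters in the same 250 bases and 34.2% in the same 187, so a match is a description and does not set these genes apart. The Tgfbr2 window held 1 match, and those of Tgfb1 and Tgfbr1 held 0.

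The libraries held 16208 (Lmo7+/+) and 15163 (Lmo7-/-) cell barcodes with 98582479 and 80648345 unique molecular identifiers (UMIs, 1 per captured RNA molecule). After a filter on genes, UMIs and mitochondrial share, 13542 and 11860 cells remained, with a median of 4536 and 4305 UMIs per cell; 279 barcodes of 24 bases occurred in both libraries, 175 of them among the kept cells. Lmo7 had 1186 and 706 UMIs in tumor cell-like cells, which are not deleted, and 34 and 27 UMIs over all host classes (1.39 and 1.15 CPM, log2 ratio -0.27, -1.06 to 0.50), so its loss in host cells was not detectable at this depth and the groups are called by their labels throughout. Cells were clustered without the 8 genes or any other list used here and named by markers, so that levels by class do not follow from the clustering. The classes held 6605 and 5060 tumor cell-like, 124 and 96 fibroblast-like, 97 and 72 endothelial cell-like, 3232 and 3801 macrophage-like, 722 and 532 monocyte-like (called M-MDSC, monocytic myeloid-derived suppressor cells, in the study), 319 and 204 dendritic cell-like, 468 and 635 T cell-like and 76 and 52 NK cell-like cells. No name was given to 14.0% and 11.7% of cells, in clusters with signs of a second class, leading genes of another class or few UMIs per cell. The largest, led by Kcnq1ot1 and Mid1 (948 cells over both libraries), was closest to tumor cells and had a median of 1342 UMIs. Others were closest to macrophages, among them those led by Cd300e (238 cells), Folr2 (83 cells) and Cbr2 (57 cells). Mast cell-like cells, 7 and 21, were too few to describe.

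The host classes were named by the marker lists used here, so the levels of these markers are a description and no independent check. At least 11 of 12 dendritic cell markers and every marker of the other host lists reached 5 CPM (a gene's counts scaled to a total of 1000000 per class and library) in both libraries. For tumor cell-like cells only 3 of 15 epithelial and keratin markers did, with 1 and 4 at 0 UMIs, and the name rests mainly on a chromosome-wide expression profile shared by the large clusters without the leukocyte gene Ptprc. The same cells carried 9 of 11 fibroblast markers at 5 CPM or more, with a summed 2580 and 2451 CPM. Monocyte-like cells carried more of the macrophage list (a summed 6233 and 6503 CPM) than of their own (5201 and 4830 CPM), and dendritic cell-like cells carried 1924 and 1463 CPM of the neutrophil list beside 2360 and 2766 CPM of their own. Levels below are CPM of the counts summed over a class in 1 library and are compared for 1 gene at a time, since gene length and the chemistry of the kit were not taken into account.

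**Figure D1:**
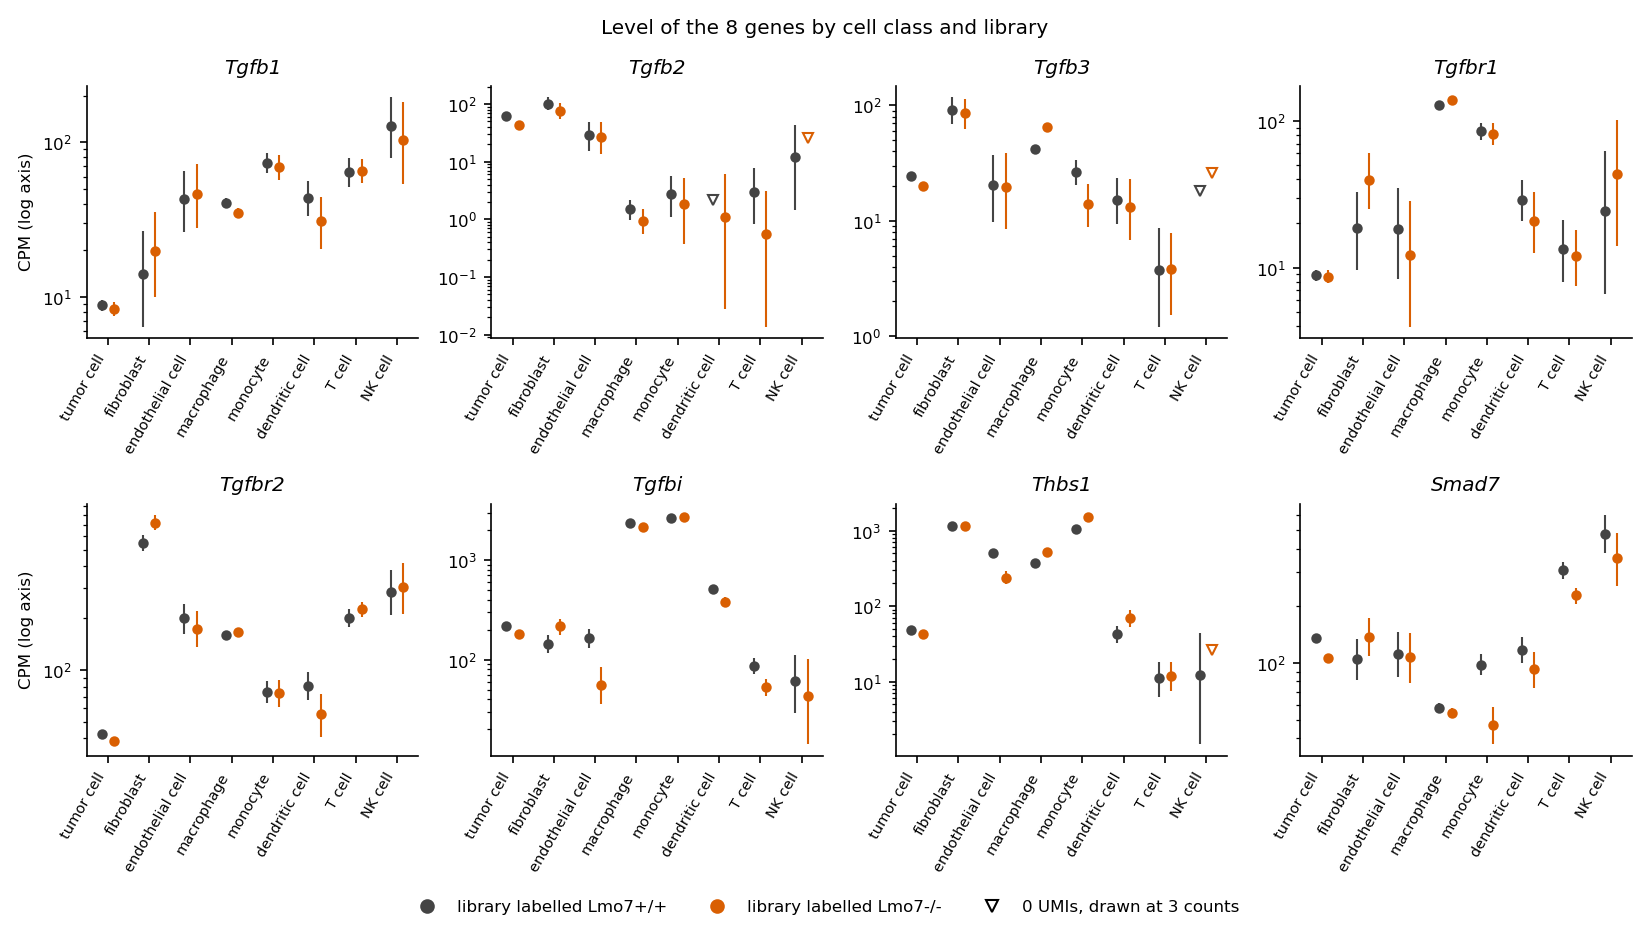
Level of each gene (CPM, log axis) in 8 cell classes, with 1 point per library and bars for the 95% Poisson interval of counting error; open triangles mark 0 UMIs and are drawn at 3 counts. Tgfbi and Tgfbr1 were highest in monocyte-like and macrophage-like cells, Tgfb2, Tgfb3 and Tgfbr2 in fibroblast-like cells, and Tgfb1 and Smad7 in NK cell-like cells.

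The 3 ligands had 3 different distributions. Tgfb1, the ligand most often linked to immune regulation, was highest in NK cell-like cells, at 128 and 104 CPM in the Lmo7+/+ and Lmo7-/- libraries, from only 21 and 12 UMIs. Monocyte-like cells followed with 73.6 and 69.4 CPM, T cell-like cells with 64.2 and 65.5 CPM and endothelial cell-like cells with 42.7 and 46.4 CPM. Macrophage-like (40.4 and 34.8 CPM) and dendritic cell-like cells (43.7 and 30.8 CPM) overlapped between the libraries. Tgfb1 was lowest in tumor cell-like cells, at 8.82 and 8.32 CPM, below every host class in both libraries.

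Tgfb2 had nearly the opposite pattern. Its order was fibroblast-like cells (102 and 76.1 CPM), tumor cell-like cells (62.0 and 42.5 CPM) and endothelial cell-like cells (28.5 and 26.9 CPM), each above the next in both libraries. Among macrophage-like cells it was at 1.501 and 0.940 CPM from 27 and 17 UMIs, and monocyte-like, dendritic cell-like, T cell-like and NK cell-like cells held at most 7 UMIs per library. With each cell thinned to 1500 UMIs, 8.42% (7.73 to 9.16) and 5.99% (5.31 to 6.73) of tumor cell-like cells had a Tgfb2 UMI, against 0.297% and 0.233% of macrophage-like cells; unthinned, the shares were 28.1% and 21.1% against 0.835% and 0.421%. In fibroblast-like cells the share was 13.7% (7.49 to 22.3) and 4.94% (1.36 to 12.2) thinned and 21.8% and 21.9% unthinned, so by share they stood above tumor cell-like cells in only 1 library at either depth. Tgfb2 transcripts were found in tumor cell-like and stromal cells, with few in the immune classes.

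Tgfb3 was found in stromal, myeloid and tumor cell-like cells. It was highest in fibroblast-like cells (90.7 and 85.1 CPM), followed by macrophage-like cells (42.0 and 64.8 CPM). Tumor cell-like (24.5 and 19.9 CPM), monocyte-like (26.4 and 13.9 CPM) and endothelial cell-like cells (20.3 and 19.5 CPM) did not differ beyond the gap between the libraries. T cell-like cells held 5 and 7 UMIs and NK cell-like cells 0 in both libraries, where a floor of 3 counts would be 18.2 and 25.9 CPM.

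The receptors were also distributed unequally. Tgfbr1, the type I kinase, was highest in macrophage-like cells (128 and 139 CPM), then in monocyte-like cells (85.0 and 82.0 CPM), and lowest in tumor cell-like cells (8.88 and 8.66 CPM). NK cell-like, fibroblast-like and dendritic cell-like cells lay between 18.8 and 43.2 CPM with overlapping libraries. Macrophage-like cells were thus 15.2-fold above tumor cell-like cells, taking the mean of both libraries.

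Tgfbr2, the type II receptor that binds ligand, peaked in fibroblast-like cells at 550 and 717 CPM. NK cell-like (285 and 303 CPM), T cell-like (202 and 225 CPM), endothelial cell-like (199 and 173 CPM) and macrophage-like cells (159 and 166 CPM) followed, each above the next in both libraries. Monocyte-like (74.8 and 73.6 CPM) and dendritic cell-like cells (80.9 and 55.1 CPM) overlapped, and tumor cell-like cells were lowest at 42.7 and 38.7 CPM. Both receptor genes were therefore lowest in tumor cell-like cells among the 8 classes. After thinning, 50.5% (40.1 to 60.9) and 59.3% (47.8 to 70.1) of fibroblast-like cells had a Tgfbr2 UMI against 6.89% and 5.99% of tumor cell-like cells; unthinned, 62.9% and 76.0% against 26.7% and 24.3%. UMIs of both receptors in the same thinned cell were found in 3.46% and 4.23% of macrophage-like cells, where independent detection of each would give 3.41% and 3.80% (unthinned, 26.0% and 23.2% beside 22.5% and 18.9%), and in 14 and 2 tumor cell-like cells, or 0.236% and 0.0451%, beside 0.114% and 0.0716% for independent detection.

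Tgfbi, a secreted matrix protein named for its induction by TGF-β, marked the myeloid classes. Monocyte-like cells held 2646 and 2731 CPM and macrophage-like cells 2379 and 2131 CPM, against 516 and 381 CPM in dendritic cell-like cells. Tumor cell-like cells (219 and 183 CPM) and fibroblast-like cells (144 and 216 CPM) overlapped. At 1500 UMIs, a Tgfbi UMI was seen in 93.9% and 94.2% of monocyte-like and 92.2% and 88.7% of macrophage-like cells, and in 8.31% (5.64 to 11.7) and 5.59% (3.68 to 8.09) of T cell-like cells; unthinned, in 95.3% and 93.4%, 97.7% and 95.8%, and 13.9% and 7.72%.

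Because RNA freed from lysed cells can add an abundant myeloid transcript to any droplet, the level of Tgfbi outside macrophage-like cells was set beside 12 macrophage markers of the same library. In T cell-like cells Tgfbi stood at 3.61% and 2.48% of its macrophage-like level, where the marker median stood at 2.78% and 1.61%. In NK cell-like cells it stood at 2.55% and 2.03% (marker median 1.41% and 1.96%), and in fibroblast-like cells at 6.04% and 10.1% (4.93% and 5.51%). In T cell-like cells 3 of 12 markers stood above Tgfbi in each library. In tumor cell-like cells Tgfbi stood at 9.22% and 8.57% of the macrophage-like level against a marker median of 0.929% and 0.841%, and 1 of 12 markers was above it in each library. Within T cell-like cells, a small cluster led by Penk and Ccl1 held 559 and 411 CPM of Tgfbi and also 2471 and 2260 CPM of the macrophage markers, while the other 4 clusters held 12.7 to 60.8 CPM. It held 71 of the 115 and 58 of the 97 Tgfbi UMIs of T cell-like cells, and Tgfbi stood there at 23.5% and 19.3% of the macrophage-like level beside a marker median of 14.2% and 9.97%.

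**Figure D2:**
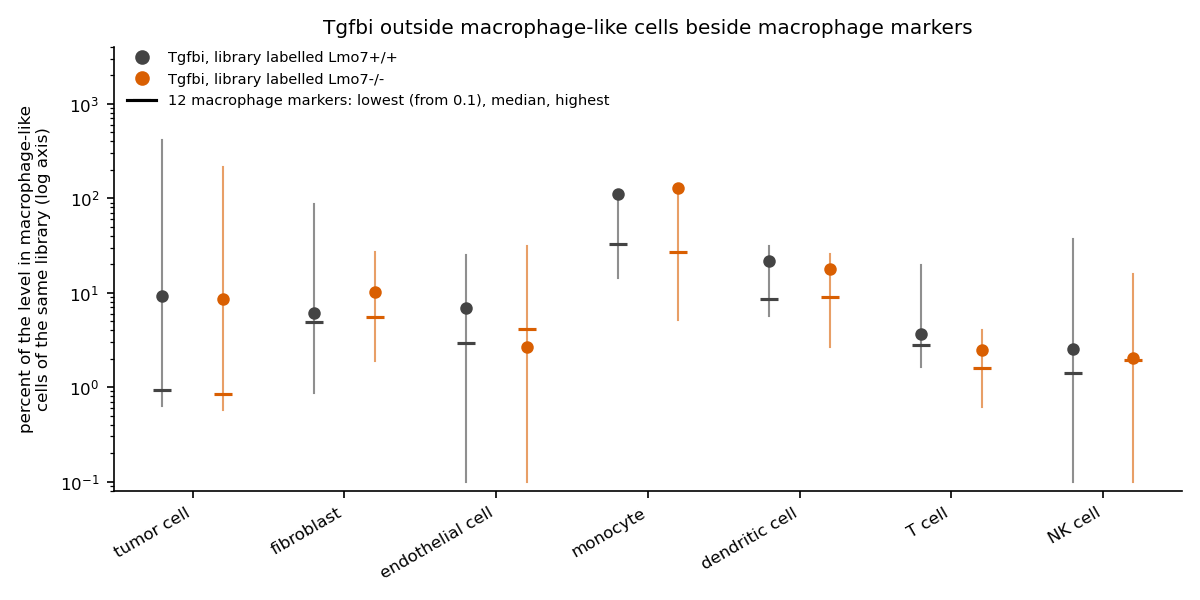
Tgfbi in each class as a percent of its level in macrophage-like cells of the same library (points), beside the lowest, median and highest of 12 macrophage markers on the same scale (vertical lines, starting at 0.1 where the lowest is less, with a dash at the median; log axis). Tgfbi stood above the marker median in T cell-like cells (3.61% and 2.48% beside 2.78% and 1.61%) and in tumor cell-like cells (9.22% and 8.57% beside 0.929% and 0.841%).

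Thbs1, whose product activates latent TGF-β and inhibits angiogenesis, was highest in monocyte-like (1044 and 1534 CPM) and fibroblast-like cells (1143 and 1149 CPM), whose order changed with the library. Macrophage-like (371 and 528 CPM) and endothelial cell-like cells (508 and 239 CPM) formed a second overlapping pair. Tumor cell-like cells held 48.2 and 42.6 CPM and T cell-like cells 11.2 and 12.002 CPM. The latter were 3.02% and 2.28% of the macrophage-like level, beside a marker median of 2.78% and 1.61%.

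Smad7, the inhibitory SMAD, was highest in lymphocytes: 480 and 354 CPM in NK cell-like and 307 and 226 CPM in T cell-like cells. Fibroblast-like (105 and 138 CPM), tumor cell-like (135 and 106 CPM), endothelial cell-like (111.8 and 107 CPM) and dendritic cell-like cells (117 and 92.5 CPM) did not differ beyond the gap between the libraries. Macrophage-like cells were lowest by the mean of the libraries, at 57.9 and 54.7 CPM, overlapping with monocyte-like cells (98.0 and 47.1 CPM). In the T cell-like cells, Smad7 ranged over clusters from 192 and 174 CPM in cells led by Gzmb to 538 and 551 CPM in cells led by Gimap3. Tgfbr2 also varied there, from 58.2 and 72.8 CPM in the cluster led by Il2ra and Foxp3 (10 and 14 UMIs) to 313 and 371 CPM in that led by Gimap3.

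The share of a gene's UMIs that a class holds depends on how many cells of it were sampled as well as on its level. Tumor cell-like cells held 71.4% and 65.4% of all UMIs in the 8 classes but 97.0% and 96.2% of those of Tgfb2 and 80.0% and 73.2% of those of Smad7. Macrophage-like cells held 21.0% and 26.5% of all UMIs and 73.3% and 80.9% of those of Tgfbr1, 66.9% and 74.4% of those of Tgfbi and 50.1% and 64.5% of those of Thbs1. For Tgfb3 the class with most UMIs differed between the libraries: tumor cell-like cells held 62.0% (60.01 to 63.9) and 41.1% (39.0 to 43.2), and macrophage-like cells 31.3% (29.5 to 33.2) and 54.4% (52.3 to 56.6). No class held most of Tgfb1, with 44.1% and 48.2% in macrophage-like, 32.7% and 28.4% in tumor cell-like and 11.3% and 8.81% in monocyte-like cells.

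**Figure D3:**
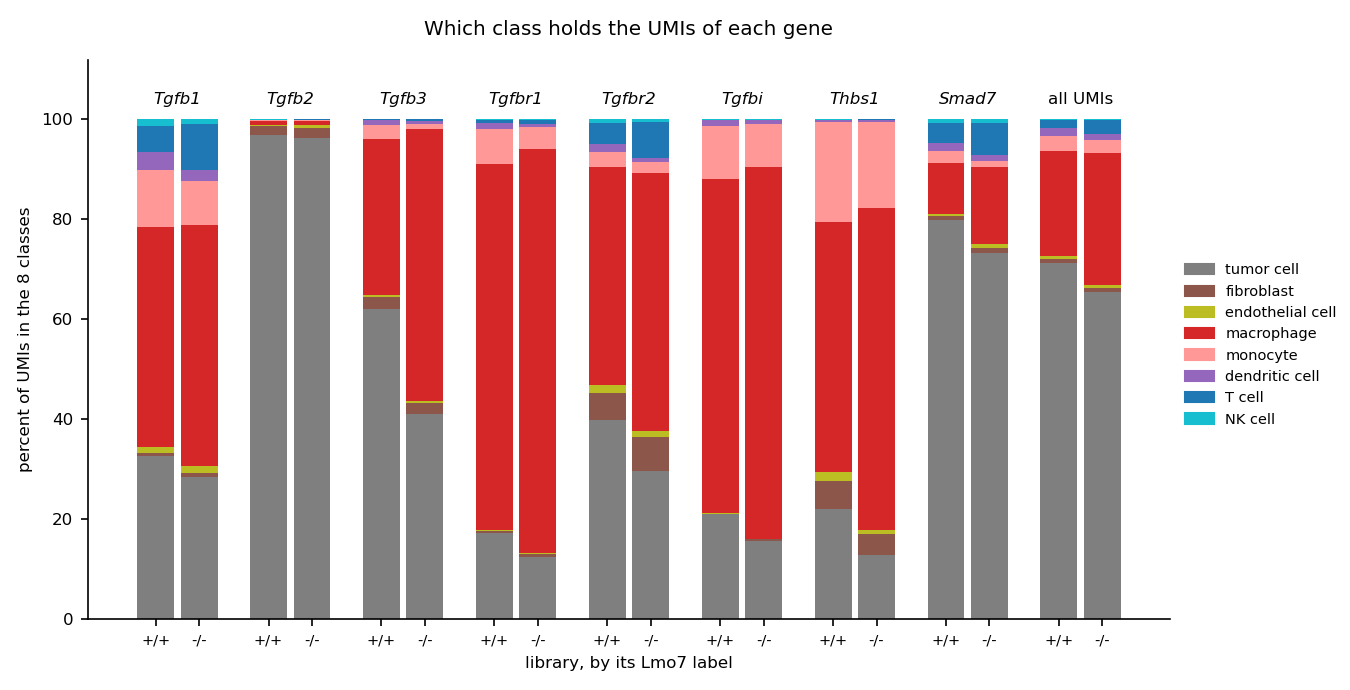
Percent of the UMIs of each gene held by each of the 8 classes, with 1 bar per gene and library (+/+ and -/- give the Lmo7 label) and, at the right, the same split of all UMIs. Tgfb2 was almost wholly in tumor cell-like cells, and the larger part of Tgfb3 was held by tumor cell-like cells for Lmo7+/+ (62.0%) and by macrophage-like cells for Lmo7-/- (54.4%).

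Between the libraries, 53 of 64 pairs of gene and class had at least 20 counts. Of these, 9 were at least 1.5-fold apart, 3 higher and 6 lower in the library labelled Lmo7-/-, and in 8 of the 9 the interval excluded equality. Each count is given beside the share of all genes with as many counts that were past the same fold in that class. In macrophage-like cells 2 of 8 were past the fold, 1 in each direction (10.7% of all genes, 3.69% higher and 6.96% lower). In monocyte-like cells 2 of 7 were past it, both lower (13.9% of all genes, 4.79% higher and 9.13% lower). In endothelial cell-like cells 2 of 6 were past it, both lower (23.1% and 12.3%). In fibroblast-like cells 1 of 8 was higher (25.5% of all genes, 10.5% higher), in dendritic cell-like cells 1 of 7 was higher (17.4% and 6.65%), and in T cell-like cells 1 of 6 was lower (13.9% of all genes, 4.79% higher and 9.09% lower). In tumor cell-like cells 0 of 8 (8.45% of all genes, 4.13% higher and 4.32% lower) and in NK cell-like cells 0 of 3 (23.9%) were past it. The median log2 ratio of the tested members was -0.22 in tumor cell-like and -0.01 in macrophage-like cells, beside -0.04 and -0.11 for all genes tested there, and 0.39 in fibroblast-like cells beside -0.06. In dendritic cell-like cells the median of the members was -0.44 beside -0.06, although the 1 gene past the fold there was higher. Other scalings (TMM or median-of-ratios factors) shifted every macrophage-like ratio by 0.11 on the log2 scale and those of the other classes by less than 0.1.

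**Figure D4:**
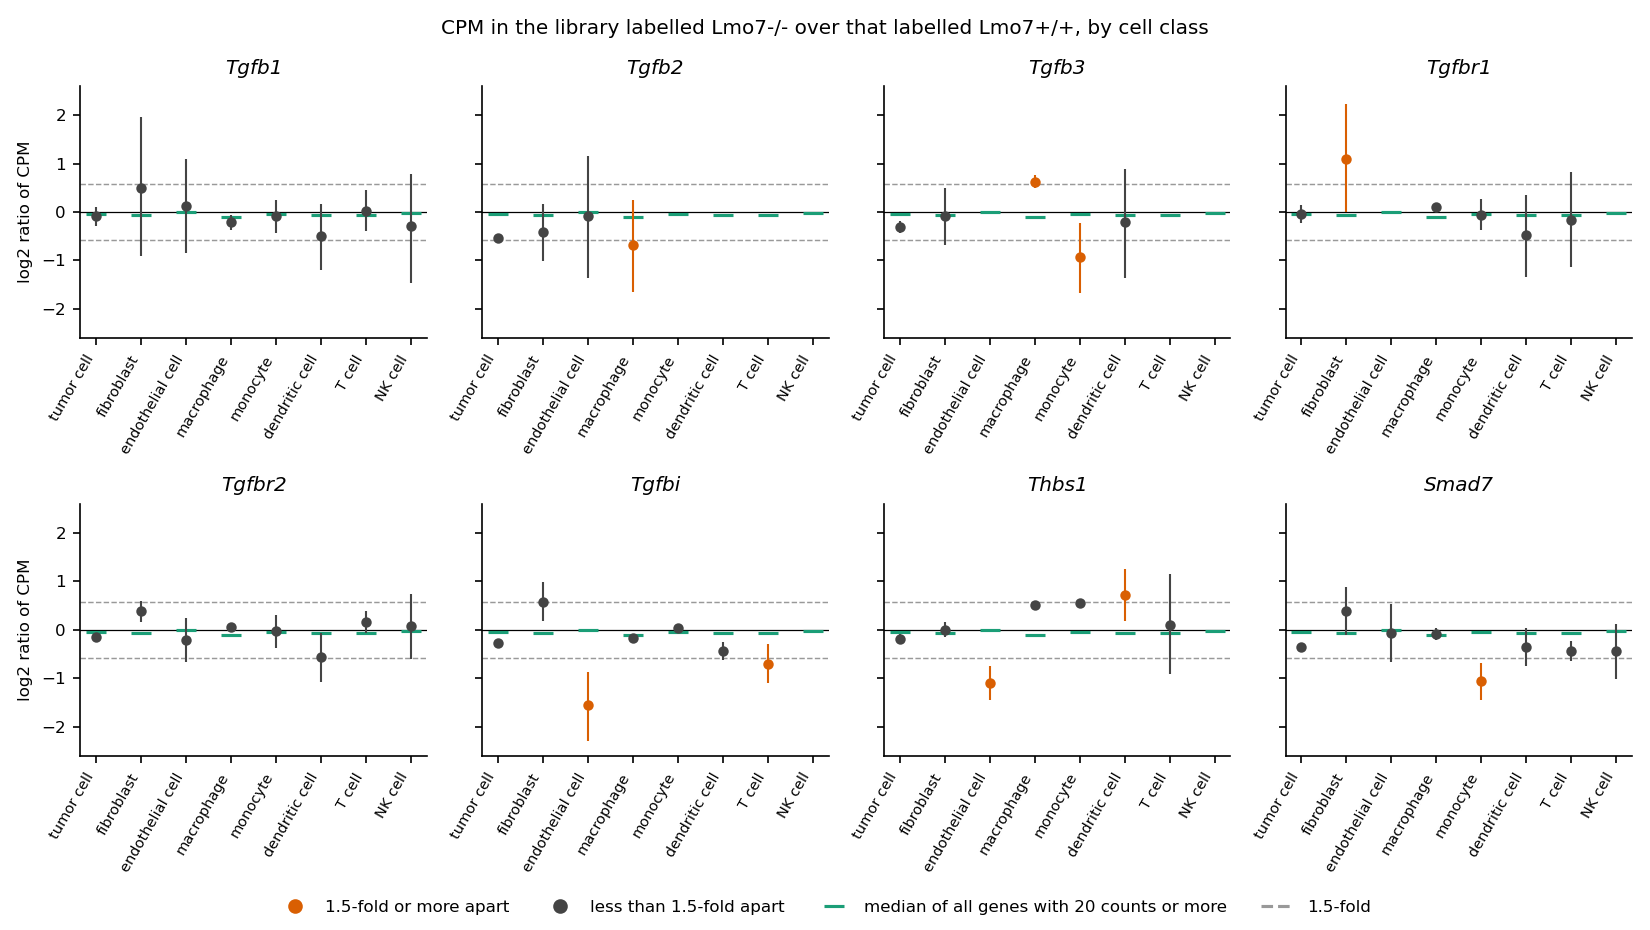
The log2 ratio of CPM, library labelled Lmo7-/- over that labelled Lmo7+/+, for each gene and class with at least 20 counts; bars give the exact binomial 95% interval for counting error, dashes the median of all genes and dashed lines 1.5-fold. Of 53 ratios 9 were past 1.5-fold, with the lowest for Tgfbi in endothelial cell-like cells (-1.55) and the highest for Tgfbr1 in fibroblast-like cells (1.09).

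In macrophage-like cells Tgfb3 was at 42.0 (39.1 to 45.1) and 64.8 (61.2 to 68.7) CPM, 1.54-fold higher in the library labelled Lmo7-/- (log2 ratio 0.63, 0.49 to 0.76). The difference was seen in 2 of 3 named macrophage-like clusters. It was 37.2 and 60.1 CPM in the main cluster led by H2-M2 and Ms4a7 and 31.3 and 48.5 CPM in the cluster led by Arl6ip1 and Cx3cr1. In the cluster led by Mmp12 and Arg1, where Tgfb3 was highest, it was 144 and 132 CPM (log2 ratio -0.13, -0.44 to 0.19). That cluster made up 7.24% and 9.73% of macrophage-like cells. Clusters closest to macrophages that had no name are not in this count. Among them, Tgfb3 was at 27.7 and 31.5 CPM in the cluster led by Ifitm1 and Il1r2 (log2 ratio 0.19, -0.47 to 0.85). It was at 19.9 and 19.4 CPM in that led by Cd300e and Xcr1. In that led by Arhgap4 and Hspa1b it was at 29.9 and 23.0 CPM, from 9 and 3 UMIs. Other unnamed clusters are not given here. At 1500 UMIs, 6.10% (5.28 to 7.02) and 8.31% (7.40 to 9.28) of macrophage-like cells had a Tgfb3 UMI, and unthinned 16.6% and 21.8%.

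Thbs1 lay just inside the 1.5-fold limit in the same direction in both large myeloid classes. The log2 ratio was 0.51 (0.46 to 0.55) in macrophage-like and 0.55 (0.48 to 0.63) in monocyte-like cells. It was positive in each of the 3 macrophage-like clusters, between 0.30 and 0.46, all below the ratio of the class. The cluster led by Arl6ip1 and Cx3cr1, with Thbs1 at 243 and 321 CPM, made up 15.4% and 7.45% of macrophage-like cells. The part of cluster shares in the class ratio was not tested. With TMM factors the macrophage-like and monocyte-like ratios were past the limit, at 0.62 and 0.60. At clustering resolution 1.0 that of monocyte-like cells was 0.25. In dendritic cell-like cells Thbs1 was at 42.3 and 69.4 CPM from 58 and 63 UMIs (log2 ratio 0.72, 0.18 to 1.26). The macrophage markers there summed to 1624 and 2032 CPM, and Thbs1 stood at 11.4% and 13.2% of its macrophage-like level beside a marker median of 8.54% and 9.002%, and the part of macrophage RNA in this ratio was not tested. In the smaller dendritic cell-like cluster, led by Ccl22 and Ccr7, Thbs1 had 7 and 0 UMIs.

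In monocyte-like cells Smad7 was at 98.0 (86.2 to 111) and 47.1 (37.2 to 58.7) CPM, 2.08-fold lower in the library labelled Lmo7-/-. Tgfb3 was at 26.4 and 13.9 CPM there, from 67 and 23 UMIs (log2 ratio -0.93, -1.68 to -0.22), the opposite direction to macrophage-like cells. The immediate early and heat shock list (stress genes) summed to 5910 and 5125 CPM in monocyte-like cells, with a median log2 ratio of -0.27 beside -0.05 for all genes. Of its 14 genes, 3 were at least 1.5-fold lower and 0 higher (9.13% and 4.79% of all genes). Among the 3 were Hspa1a (201 and 94.7 CPM) and Jun (192 and 128 CPM). The part of stress genes in the result was not tested.

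Endothelial cell-like cells had the ratio farthest from 0, that of Tgfbi (-1.55), from 97 and 72 cells. Thbs1 was at 508 (447 to 575) and 239 (194 to 292) CPM, 2.12-fold lower in the library labelled Lmo7-/-, and Tgfbi at 165 (131 to 205) and 56.2 (35.6 to 84.3) CPM. The share of cells with a Thbs1 UMI was 43.0% and 22.6% after thinning and 60.8% and 47.2% without. In the same cells 5 of 14 stress genes were at least 1.5-fold lower (12.3% of all genes), Hspa1a at 907 and 405 CPM among them. The pericyte list summed to 518 and 1089 CPM there, and the macrophage list to 553 and 745 CPM. Tgfbi stood at 6.92% and 2.64% of its macrophage-like level where the macrophage markers had a median of 2.94% and 4.08%, and 9 of 12 markers stood above it in the library labelled Lmo7-/-. The part of stress genes and of other cells in these ratios was not tested.

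Fibroblast-like cells held Tgfbr1 at 18.8 (9.69 to 32.8) and 39.9 (24.98 to 60.3) CPM from 12 and 22 UMIs. The share of these cells with a Tgfbr1 UMI went the other way after thinning, at 6.32% and 4.94% from 6 and 4 cells, and was 9.68% and 19.8% unthinned, with a median of 2945 and 4150 UMIs per cell. Macrophage markers summed to 1028 and 1337 CPM and monocyte markers to 1050 and 1547 CPM in the same cells, and their part in the ratio was not tested. Tgfbr2 was at 550 and 717 CPM (log2 ratio 0.38, 0.17 to 0.59). Tgfbi lay just under the limit there, at a log2 ratio of 0.58, and at 0.22 without cells that held 3 UMIs of another lineage. In T cell-like cells Tgfbi was at 85.9 and 52.9 CPM (log2 ratio -0.70, -1.10 to -0.30), and the macrophage markers there summed to 456 and 360 CPM. The Penk cluster made up 11.3% and 7.24% of T cell-like cells, and the stress list summed to 2610 and 1788 CPM with 9 of 13 genes lower (9.09% of all genes). The part of either in the ratio was not tested. Tgfb2 in macrophage-like cells, from 27 and 17 UMIs, had an interval that included equality (-1.64 to 0.25).

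In tumor cell-like cells, which have the same genotype in both libraries, no member passed 1.5-fold, and Tgfb2 came nearest at 62.0 (60.05 to 64.0) and 42.5 (40.6 to 44.5) CPM, 1.46-fold lower in the library labelled Lmo7-/-. It was lower in 5 of 5 named tumor cell-like clusters, by at least 1.5-fold in 4. In that led by Gm26917 and Cnih2 the interval included equality (-0.99 to 0.25). In the unnamed cluster led by Kcnq1ot1 and Mid1, closest to tumor cells, Tgfb2 was at 61.2 and 54.3 CPM (log2 ratio -0.17, -0.92 to 0.52). In the cluster led by Enpp2 and Serpine2, where Tgfb2 was highest, it was 130 and 76.8 CPM, and in the cluster led by the cell division genes Anln and Trip13 it was 30.1 and 15.2 CPM. The Enpp2 cluster made up 14.7% of tumor cell-like cells in the library labelled Lmo7+/+ and 22.3% in that labelled Lmo7-/-. Tgfb3 was lower in 4 of 5 named clusters, by at least 1.5-fold in 3, with 25.5 and 15.3 CPM in the cluster led by Cdsn and Car9 and 20.2 and 21.3 CPM in that led by Gm26917 and Cnih2. Among the clusters with lower Tgfb3, the interval included equality in that led by Enpp2 (-0.40 to 0.02) and that led by Kcnq1ot1 and Gabre (-1.55 to 0.25). The Enpp2 cluster also held less Tgfbi (284 and 123 CPM), Thbs1 (66.0 and 30.6 CPM) and Tgfbr2 (76.1 and 37.9 CPM) in the library labelled Lmo7-/-, each past 2-fold. In the other 4 named clusters the log2 ratios of these genes lay between -0.39 and 0.14. In the unnamed cluster led by Kcnq1ot1 and Mid1 they were -0.85, 0.07 and 0.12. The share of all genes past a fold was not counted for single clusters. The macrophage markers in the Enpp2 cluster summed to 345 and 228 CPM.

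**Figure D5:**
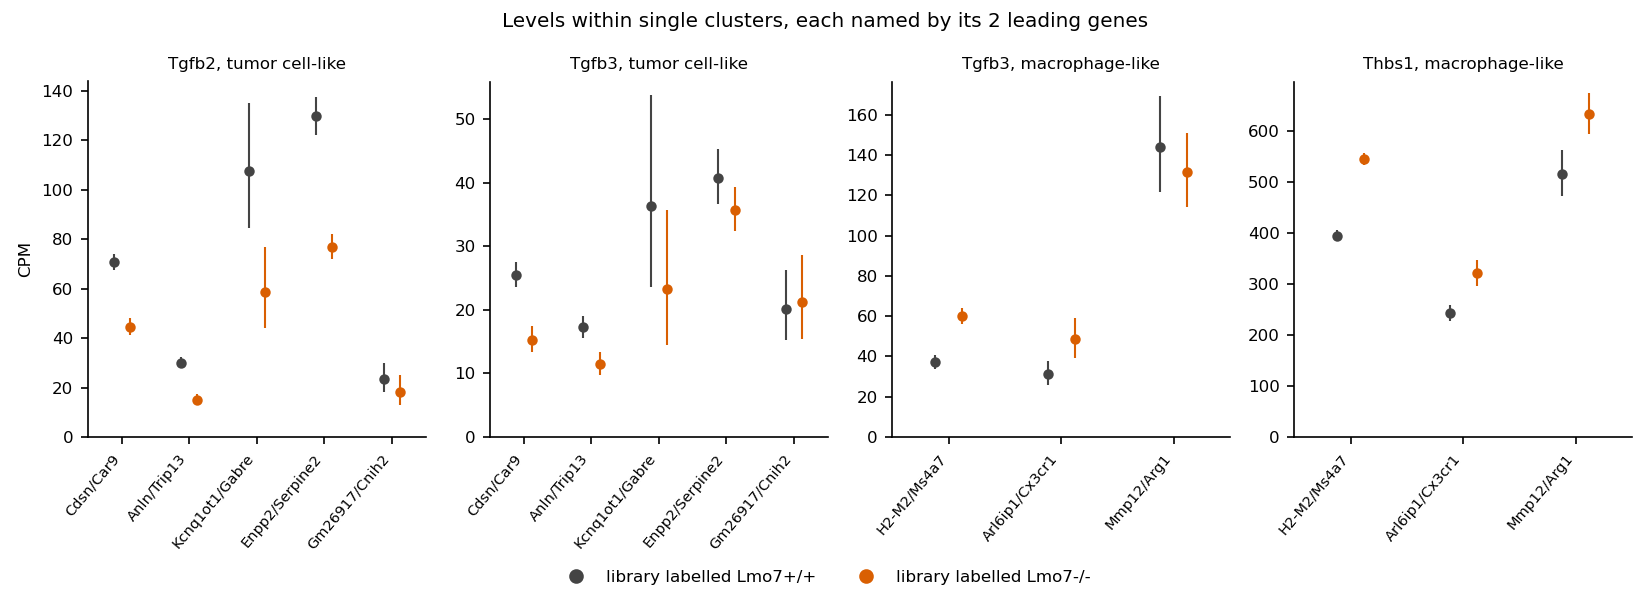
CPM of Tgfb2 and Tgfb3 in the 5 tumor cell-like clusters and of Tgfb3 and Thbs1 in the 3 macrophage-like clusters, each cluster given by its 2 leading genes; points are the 2 libraries and bars 95% Poisson intervals. Tgfb2 was lower in the library labelled Lmo7-/- in 5 of 5 tumor cell-like clusters, and Thbs1 higher in 3 of 3 macrophage-like clusters. For Tgfb2 in the Gm26917 cluster the interval of the ratio included equality.

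The genes that hold TGF-β latent or release it were counted next, as genes at least 1.5-fold higher or lower in the library labelled Lmo7-/-. Of 12 genes, 2 of 8 tested were higher and 0 lower in macrophage-like cells (3.69% and 6.96% of all genes), where Ltbp3, a binding protein of the latent complex, was at 7.73 and 11.996 CPM. In tumor cell-like cells 0 of 11 were higher and 2 lower (4.13% and 4.32% of all genes), and in monocyte-like cells 0 of 6 and 1 (4.79% and 9.13%). Endothelial cell-like cells had 3 of 8 higher and 0 lower (10.8% of all genes were higher there), among them Lrrc32, which encodes the surface anchor GARP, at 99.6 and 178 CPM. Nrros was another, at 120 and 183 CPM from 59 and 75 UMIs (log2 ratio 0.61, 0.10 to 1.13). The macrophage markers in these cells summed to 553 and 745 CPM, and the part of macrophage RNA in the Nrros ratio was not tested. Fibroblast-like cells had 1 of 9 higher and 2 lower, where 10.5% of all genes were higher and 1009 of 6739 lower. The 2 lower were Ltbp4, at 195 and 111 CPM, and the integrin subunit Itgav, at 189 and 123 CPM. The integrin and protease genes with most UMIs were highest elsewhere: Itgav in T cell-like cells (281 and 260 CPM), the convertase gene Furin in monocyte-like cells (252 and 284 CPM) and Itgb5 in fibroblast-like cells (270 and 250 CPM).

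Among 6 coreceptors and pseudoreceptors, 0 of 6 were past the fold in macrophage-like and in tumor cell-like cells (10.7% and 8.45% of all genes). In endothelial cell-like cells 1 of 6 was higher and 3 lower, where 10.8% of all genes were higher and 12.3% lower. Tgfbr3, which presents ligand to the type II receptor, was highest in fibroblast-like cells (159 and 190 CPM), and Acvrl1 in endothelial cell-like cells (130 and 120 CPM), as was Cd109 (81.3 and 41.5 CPM). Of 11 SMADs and regulators, 0 of 11 were past the fold in tumor cell-like, macrophage-like and monocyte-like cells (8.45%, 10.7% and 13.9% of all genes). The feedback gene Pmepa1 was highest in fibroblast-like cells (1057 and 1018 CPM), the corepressor gene Skil in macrophage-like cells (359 and 349 CPM) and Tgif1 in NK cell-like cells (377 and 259 CPM).

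Of 14 response genes, often used as readouts of TGF-β or of the related BMP pathway, 5 of 13 were lower and 0 higher in macrophage-like cells (6.96% of all genes were lower), with a list median of -0.54 on the log2 scale against -0.11 for all genes. The summed level of the list went the other way, at 548 and 656 CPM. The genes past the fold were at low levels, with Id1 at 11.1 and 6.36 CPM, Snai1 at 4.17 and 2.16 CPM, Acta2 at 3.56 and 2.05 CPM and Postn at 3.84 and 1.77 CPM. Postn and Acta2 are genes of matrix-producing cells, and the tumor cell-like cells of these libraries held 153 and 58.2 CPM of Postn and 62.7 and 44.7 CPM of Acta2, and the part of tumor or fibroblast RNA in macrophage-like droplets was not tested. In tumor cell-like cells 3 of 14 were lower, among them the matrix gene Fn1 (610 and 399 CPM), and 1 was higher, Id3 (6.89 and 19.2 CPM). Of all genes there, 4.32% were lower and 4.13% higher. Endothelial cell-like cells held Ccn2 at 417 and 215 CPM, and had 3 of 13 higher and 3 lower (10.8% and 12.3% of all genes). Fibroblast-like cells had 4 of 12 higher, among them Id2 (57.8 and 170 CPM) and Id3 (186 and 321 CPM), and 0 lower, where 10.5% of all genes were higher. Monocyte-like cells had 2 of 8 lower and 0 higher (9.13% and 4.79% of all genes), with Id1 at 33.1 and 15.7 CPM.

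Of 14 other ligands and receptors of the superfamily, Inhba, which encodes the activin A subunit, was higher in the library labelled Lmo7-/- in 3 classes: 67.4 and 118 CPM in tumor cell-like, 9.06 and 21.7 CPM in macrophage-like and 76.7 and 145 CPM in monocyte-like cells. In the list as a whole, 3 of 13 were higher and 0 lower in tumor cell-like cells (4.13% and 4.32% of all genes). In macrophage-like cells 1 of 11 was past the fold in each direction (3.69% of all genes higher and 6.96% lower). Of 4 other thrombospondin genes, Thbs2 (869 and 761 CPM) and Thbs4 (1028 and 745 CPM) were highest in fibroblast-like cells. Of 4 hemoglobin genes, 4 were lower in tumor cell-like cells (4.32% of all genes), summing to 4.43 and 0.0224 CPM. The stress list had 1 of 14 higher and 3 lower in tumor cell-like cells, 1 and 1 in macrophage-like cells and 0 and 9 of 13 in T cell-like cells. Of all genes, 4.13% were higher and 4.32% lower in tumor cell-like, 3.69% and 6.96% in macrophage-like, and 4.79% and 9.09% in T cell-like cells.

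Over the 16 sums of class and library, the genes most like each member in log2(CPM + 1) were sought among 12251 genes with at least 200 UMIs. These correlations are descriptions: the sums come in pairs from 8 classes and share a library and its depth. Tgfb1 was most like Fosl2 (r = 0.973), Klf13 (0.963) and Mef2d (0.962), Tgfb2 most like Frk (0.969), Adgra3 (0.966) and Myl9 (0.964), and Tgfb3 most like Ttyh2 (0.965), Dram1 (0.965) and Nucb2 (0.955). Tgfbr1 was most like Fcgr3 (0.93), Clec4a3 (0.93) and Cd72 (0.93), 3 genes of myeloid and other immune cells, and Tgfbr2 most like Tbc1d2b (0.92), Il3ra (0.87) and Cr1l (0.85). Tgfbi was most like Fth1 (0.98), Sirpb1b (0.96) and Il18 (0.96), Thbs1 most like Bach1 (0.98), Rrbp1 (0.95) and Sptlc2 (0.94), and Smad7 most like Camk2g (0.96), Syne2 (0.93) and Ctsw (0.91). Among the members themselves the closest pair was Tgfb3 and Thbs1 (0.84), followed by Tgfbr1 and Tgfbi (0.77).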

How the data were processed

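Single-cell RNA sequencing was done on 2 libraries of live cells from MC38 tumors, 1 per host genotype. The authors deposited, for each called cell, the raw UMI count of every gene. The submitters' processing notes name Cell Ranger 2.1.1 and mm10, while the header of the matrices gives version 3.0.0 of the software; the end of the transcript that was sequenced is not given in the sources used here. No normalization is in the files.

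The cell filter required 500 genes and 1000 UMIs and allowed a mitochondrial share of up to 15%. Counts were log-normalized to 10000, and 2000 variable genes without the 8 members and the other lists gave 30 principal components (variable genes with scanpy 1.11.5), a graph of 20 nearest neighbours and Louvain clusters at resolution 0.5 (igraph 0.11.9), with no integration, which the study does not name. Clusters without a name and with at least 100 cells were clustered once more. Names came from 12 marker lists. They needed 3 markers at 5 CPM, a score of 0.15 and no other class above 0.6 of it. A cluster stayed unnamed when more of its 10 leading genes marked another class, and a tumor name needed 0.8 of the tumor chromosome profile. It also stayed unnamed when its median UMIs were low and none of its leading genes marked its class. All of these limits were chosen with the data in view. Doublets were kept; Scrublet marked 2.90% and 2.60% of cells, which were left out in an alternative.

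Counts were summed per class and library for classes with at least 30 cells in each, and scaled to CPM. Ratios needed 20 counts over both libraries, and a floor of 3 counts stood for 0. Intervals are exact (Poisson for CPM, Clopper-Pearson for shares and ratios). Detection in cells was compared at 1500 UMIs per cell, leaving out shallower cells, and are given unthinned too. The ratio step was tested on simulated data. Named were the 8 members, of each other list the 3 genes with most UMIs and genes past 1.5-fold with at least 100 counts (in part given as counts, and 1 gene of the response list not reported here), and 3 genes most like each member. The members and lists were chosen with earlier results of these data known. Alternatives covered the filter, resolution, components, clustering genes, doublets, cells with 3 UMIs of another lineage, scaling (edgeR 4.0.16 TMM factors, median-of-ratios, without the 10 most abundant genes, mean of cells), count minimum, fold and thinning. No test was possible with 1 library per genotype.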

Additional observations from a re-analysis of the deposited data

Results flagged for a closer look

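For 2 genes the libraries were at least 1.5-fold apart in opposite directions in different classes. Tgfb3 was higher in macrophage-like cells of the library labelled Lmo7-/- and lower in its monocyte-like cells, and the log2 ratios differed by 1.55. Thbs1 was higher in dendritic cell-like and lower in endothelial cell-like cells, and the log2 ratios differed by 1.80. Neither difference was tested, since each class has 1 value per genotype.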

How the results depend on the processing

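No paired analysis was possible because each genotype has 1 library. Of 610 recomputed log2 ratios (53 ratios, 12 alternatives), 560 stayed within their counting interval, 50 moved and 0 reversed. A change of sign was counted as reversed only for the 9 ratios past 1.5-fold. Some of the other ratios changed sign. Smad7 in NK cell-like cells went from -0.44 to as high as 0.11, and Thbs1 in T cell-like cells from 0.10 to as low as -0.86. Of 118 recomputed counts of genes past 1.5-fold, 83 stayed within 1.5 times the count reported and 35 moved. In endothelial cell-like cells 2 became 3 with a strict filter or cells of another lineage removed. In tumor cell-like cells the count of 0 became 1 with a lenient cell filter and 2 with members and lists among the variable genes. In fibroblast-like cells 1 became 2 with TMM factors, median-of-ratios factors or without the 10 most abundant genes, 4 with the mean over cells and 0 at 50 counts. In macrophage-like cells 2 became 1 with a lenient or strict filter, resolution 0.2, members among the variable genes, cells of another lineage removed, the mean over cells or 50 counts, and 0 at 2-fold. In monocyte-like cells 2 became 1 with a strict filter, resolution 1.0, 20 components, doublets removed or 2-fold, and the class was absent at resolution 0.2 and with members among the variable genes. In dendritic cell-like cells 1 became 2 with a strict filter, doublets removed or the mean over cells, and 0 at 2-fold. In T cell-like cells 1 became 0 with a lenient or strict filter, members among the variable genes or 2-fold, 2 at resolution 1.0, with the mean over cells or without a minimum, and 3 at resolution 0.2. In NK cell-like cells 0 became 1 with a lenient filter or no minimum, and 2 with a strict filter. The cause was not tested. With equal cells per class, 3 of 8 genes had most UMIs in the same class as before. Tgfbi and Thbs1 in endothelial cell-like and Tgfbr1 in fibroblast-like cells were past 1.5-fold in 12 of 12 alternatives, and Tgfb3 in macrophage-like cells in 8 of 12 (0.54 to 0.73). The alternatives reuse mostly the same UMIs and are not independent. Tgfbr1 in fibroblast-like cells rests on 12 and 22 UMIs, and its thinned share of cells went the other way. The class with the highest level became monocyte-like for Tgfb1 and macrophage-like for Tgfbi with 20 components, and fibroblast-like for Thbs1 with a strict filter.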
